A study of Mus musculus with 7 samples.

Results

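The comparison of diabetic db/db with lean db/+ β-cells rests on 5 sequenced libraries of sorted pancreatic β-cells, 2 from db/db and 3 from db/+ mice, out of 7 in the series, and on the 13406 of 35013 gene symbols that passed a filter on low counts in those 5 libraries. The libraries were taken by their labels and every gene past the filter was kept. The series examined whether the retinaldehyde dehydrogenase ALDH1A3 drives failure of β-cells in diabetes, and its 2 Aldh1a3 knockout libraries were left out of every fit here but one named alternative. The db/db mice were RIP-Cre Herr with Aldh1a3 fl/+, tdT fl/+ and Lepr db/db, homozygous for the db mutation of the leptin receptor, which makes mice obese and diabetic. The db/+ mice were RIP-Cre Herr with Aldh1a3 fl/+, tdT fl/+ and Lepr db/+, lean carriers of the same mutation. Both groups therefore carried the Herr line of a Cre driven by the rat insulin promoter, a single floxed allele of Aldh1a3 and a tdTomato reporter. Mice of 16 to 20 weeks and of both sexes were kept on normal chow and fasted for 16 h before islets were isolated, and the gate used to sort the cells of these libraries is not given in the sources used here.

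A β-cell makes, stores and releases insulin in proportion to the glucose that it burns. Glucose enters through the transporter GLUT2, is broken down and oxidised in mitochondria, and the ATP so formed closes potassium channels, depolarises the membrane and opens calcium channels that trigger granule release. Transcription factors such as PDX1, NKX6-1 and MAFA hold this program in place, and in long-standing diabetes many β-cells lose parts of it while genes of progenitors or other cells appear, a change called dedifferentiation. Several sugar-, sterol- and activity-regulated gene programs are also known to move with the metabolic state of the cell.

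The total count ran from 28126300 to 34006204 per library, and 3 counts, taken as the detection floor, corresponded to 0.0713 to 0.123 CPM (counts per 1000000 counts, scaled by the TMM method of edgeR). The sorted cells carried the β-cell markers Ins1, Ins2, Iapp, Pdx1, Nkx6-1, Slc2a2, Mafa and Slc30a8 in all 5 libraries. Libraries of 1 group were less alike than counting noise alone would make them, and the 2 groups parted on the first principal component, which held 67.5% of the variance. Among the lean libraries mouse 3 stood apart: Kdm5d, Eif2s3y, Uty and Ddx3y, all Y-linked, summed to 2911 counts there and to between 30 and 79 elsewhere, so that the other 4 libraries look female and sex was not balanced between the groups. Fold changes also went with transcript length. With genes in 5 equal classes, the median log2 fold change was -0.19 for the shortest transcripts and 0.31 for the longest, and -0.19 to 0.20 from the lowest to the highest GC content. A fit with offsets for length and GC was made as an alternative. In bulk libraries, fewer cells with a transcript and less transcript per cell cannot be told apart.

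At a Benjamini-Hochberg adjusted p under 0.05 from the quasi-likelihood F test of edgeR, 5069 of the 13406 genes (37.8%) differed, 2662 of them higher in db/db (19.9%) and 2407 lower (18.0%). The 2 groups did not overlap for 63.3% of genes. Changes of at least 4 in log2 fold change were found for 221 genes that rose and 46 that fell. Without db/+ mouse 1 the fit called 3331 genes, and without db/+ mouse 2 it called 3368. Such fits hold fewer samples, with the lone db/db mouse assumed to vary like the lean mice where 1 db/db library is left out, and the calls they lose are named below with the adjusted p. These shares over all genes are the background for the counts in each group of genes below. The plot of all genes shows the called genes on both sides at nearly every level of expression, and the plot of gene lists shows which groups of genes leaned to one side.

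**Figure D1:**
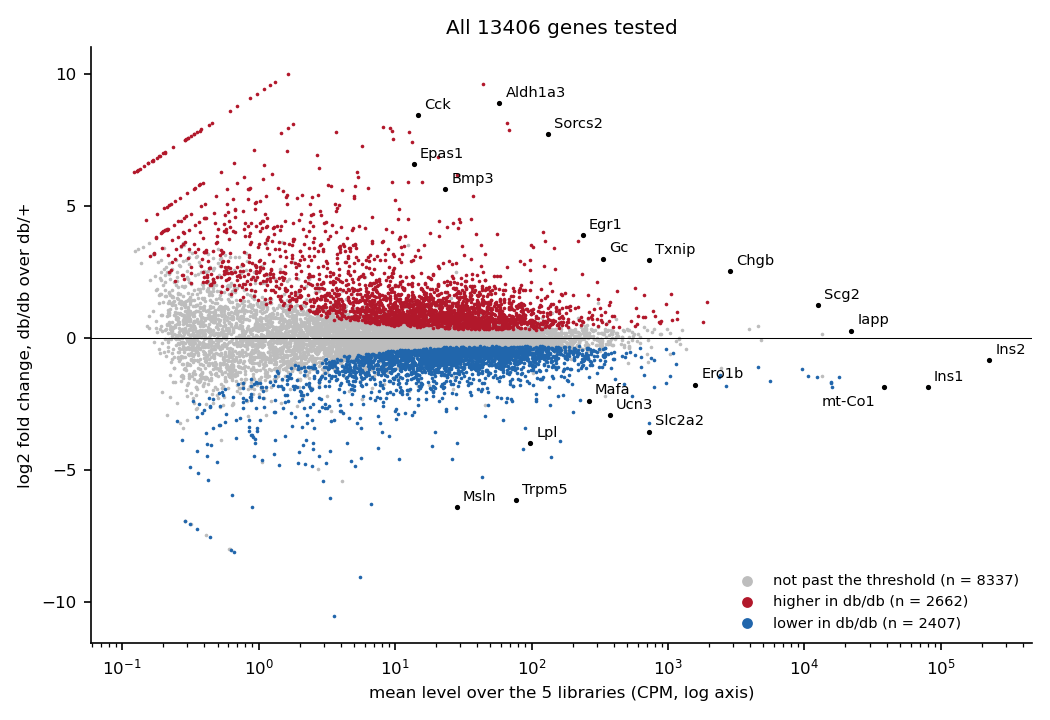
Log2 fold change of db/db over db/+ (vertical axis) against the mean level over the 5 libraries in CPM (horizontal log axis) for the 13406 genes tested, with the 2662 higher genes in red and the 2407 lower genes in blue. Ins1, Ins2 and mt-Co1 sit below 0 at the far right, and Aldh1a3 and Cck stand highest among the named genes.

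**Figure D2:**
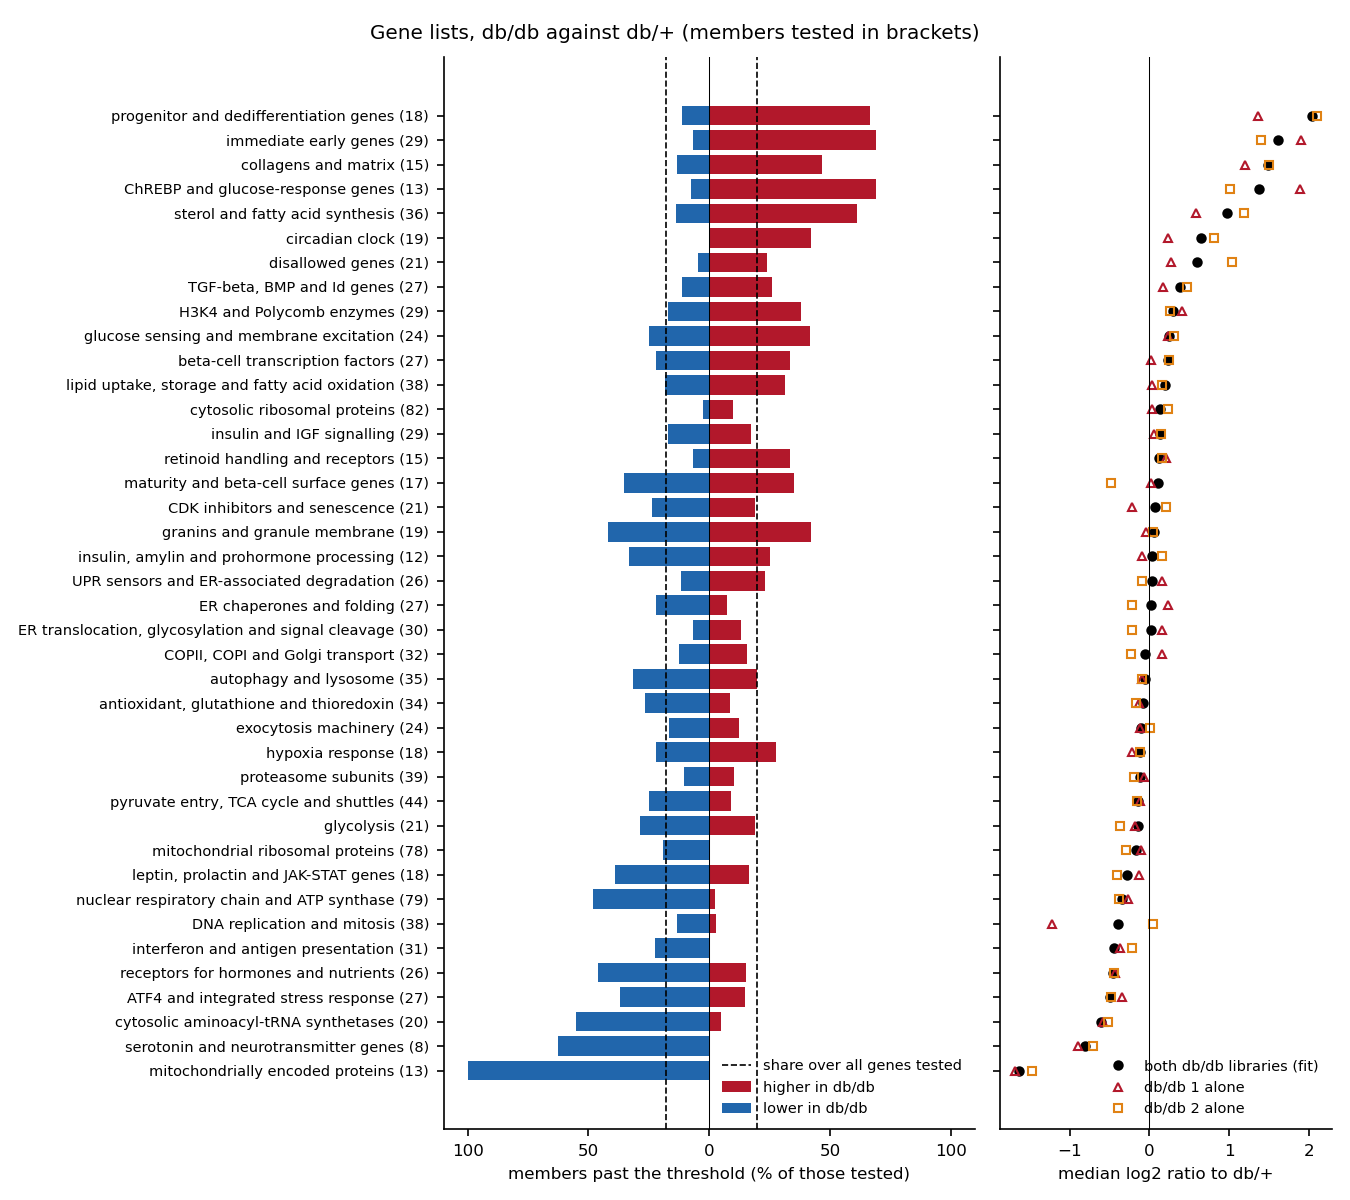
Left, the percent of tested members of each of 40 gene lists that were higher (red, to the right) or lower (blue, to the left) in db/db, with dashed lines at the shares over all genes, 19.9% and 18.0%. Right, the median log2 ratio to db/+ in the fit (black) and in each db/db mouse alone (red triangles, mouse 1, and orange squares, mouse 2): all 13 mitochondrially encoded genes were lower, and immediate early, glucose-response and sterol genes leaned higher.

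Insulin itself was the largest loss in CPM. Ins2, the more abundant of the 2 mouse insulin genes, stood at 150564 and 157761 CPM in db/db and 259921, 272512 and 290224 CPM in db/+ (log2 fold change -0.83, SE 0.26, edgeR adjusted p = 0.0429). Ins1 stood at 43093 and 18667 CPM in db/db and 111383, 103265 and 124559 CPM in db/+ (log2 fold change -1.87, SE 0.40, edgeR adjusted p = 0.0117). Both genes were lower in each db/db mouse than in any lean mouse, and Ins1 was lowest in db/db mouse 2. Together they took 23.5% and 21.8% of all counts in db/db and 32.2%, 33.0% and 36.1% in db/+ (22.7% ± 1.22 and 33.8% ± 2.07, SD, n = 2 and 3, exact permutation test, two-sided p = 0.200 as 2 times the one-sided p, the smallest that 2 against 3 mice allow in this form). Iapp, the amyloid-forming peptide released with insulin, was at 26731 and 22492 CPM in db/db and 17605, 20653 and 22499 CPM in db/+ and did not pass the test (log2 fold change 0.28, SE 0.21, edgeR adjusted p = 0.324). Ins2 lost its call with length and GC offsets (log2 fold change -0.57, edgeR adjusted p 0.117). Iapp passed the threshold with length and GC offsets (log2 fold change 0.97, edgeR adjusted p 0.0130). Ins2 lost its call without db/db mouse 2, db/+ mouse 1 or db/+ mouse 2 (edgeR adjusted p 0.0543 to 0.209). Ins1 moved on the log2 scale to -2.60 without db/db mouse 1.

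The enzymes that mature insulin moved apart. Pcsk1, which makes the first cuts in proinsulin, fell from 969, 724 and 1035 CPM in db/+ to 522 and 537 CPM in db/db (log2 fold change -0.78, SE 0.18, edgeR adjusted p = 0.0157). Pcsk2, the second convertase, stood at 4619 and 4784 CPM in db/db and 5287, 4379 and 5159 CPM in db/+ with overlapping groups (log2 fold change -0.07, edgeR adjusted p = 0.761). Cpe, which trims the cut ends, was higher in both db/db mice than in any lean mouse but missed the threshold (5013 and 5945 CPM in db/db and 3757, 3741 and 4571 CPM in db/+, edgeR adjusted p = 0.0881). Furin, the convertase of the constitutive pathway, rose to 71.9 and 104 CPM from 36.2, 40.4 and 39.3 CPM, and the chaperone of PCSK2, Scg5, and the amidating enzyme Pam rose (log2 fold changes 0.73 and 0.63). Glrx, a small thiol oxidoreductase, fell (log2 fold change -1.13). Of the 12 genes of insulin, amylin and prohormone processing, 3 rose and 4 fell, and the median log2 fold change was 0.03 beside 0.01 over all genes tested. Cpe passed the threshold without db/+ mouse 3 (log2 fold change 0.55, edgeR adjusted p 0.0420) and with length and GC offsets (log2 fold change 0.59, edgeR adjusted p 0.0480). Pcsk1 lost its call without db/db mouse 1 or db/+ mouse 1 (edgeR adjusted p 0.0521 to 0.0588), as did Pam without db/+ mouse 1 or db/+ mouse 2 (0.0557 to 0.0639). Counts for insulin, amylin and prohormone processing were 2 higher and 2 lower without db/+ mouse 1.

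Granule proteins went both ways. The granins, acidic proteins that pack hormone into granules, held the largest gains in CPM of the whole comparison: Scg2 went from 7154, 7769 and 9491 CPM in db/+ to 18101 and 20559 CPM in db/db (log2 fold change 1.25, SE 0.20, edgeR adjusted p = 0.00423). Chgb went from 1056, 824 and 1033 to 5025 and 6256 CPM (log2 fold change 2.54, SE 0.18, edgeR adjusted p = 0.000516). Scg3 and Vgf rose (log2 fold changes 1.37 and 1.92), while Chga stood at 12148 and 16442 CPM in db/db and 12199, 12492 and 13590.2 CPM in db/+ and did not pass the test. In each of the called granins the lower db/db mouse lay above the highest lean mouse. Others of the list fell. The zinc transporter Slc30a8, which loads granules with the zinc that insulin crystallises around, stood at 164 and 181 CPM in db/db and 784, 792 and 822 CPM in db/+ (log2 fold change -2.21, SE 0.13, edgeR adjusted p = 0.000325), the islet glucose-6-phosphatase of the ER, G6pc2, at 1327 and 1099.8 CPM in db/db and 3335, 3071 and 3288 CPM in db/+ (log2 fold change -1.41, SE 0.16, edgeR adjusted p = 0.00142), and the Rab27 effector Sytl4, or granuphilin, at 62.9 and 67.99 CPM in db/db and 384, 333 and 281 CPM in db/+ (log2 fold change -2.35, SE 0.17, edgeR adjusted p = 0.000492). The granule phosphatase-like antigens Ptprn and Ptprn2 rose (log2 fold changes 1.03 and 0.78). The priming factor Cadps fell (log2 fold change -1.35) while its paralog Cadps2 rose (log2 fold change 0.98), from 7.54, 10.5 and 10.5 to 16.9 and 20.6 CPM. Of 19 tested genes of granins and granule membrane, 8 rose and 8 fell, so that the median was 0.06 although 16 of the 19 changed. Ptprn lost its call with length and GC offsets (log2 fold change 0.73, edgeR adjusted p 0.0531). Ptprn lost its call without db/db mouse 1 or db/+ mouse 1 (edgeR adjusted p 0.0613 to 0.0708).

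In the release machinery 29.2% of tested genes were called, beside 37.8% over all genes. Among 24 tested exocytosis genes 3 rose and 4 fell, with a median of -0.11. The core membrane fusion proteins Stx1a, Snap25 and Vamp2 did not pass the test. Those that rose were calcium sensors of the synaptotagmin family, Syt5, Syt7 and Syt9, of which Syt9 went from 13.1, 9.47 and 10.8 to 30.5 and 37.8 CPM (log2 fold change 1.62, SE 0.18, edgeR adjusted p = 0.00128). The vesicle protein Vamp3 fell from 61.2, 55.8 and 50.7 to 20.8 and 26.5 CPM (log2 fold change -1.24, SE 0.15, edgeR adjusted p = 0.00178), as did the Rab effector Rph3al (log2 fold change -0.88) and, among the rest, the tethering protein Exoc2 (log2 fold change -0.71). Syt7 lost its call with length and GC offsets (log2 fold change 0.22, edgeR adjusted p 0.128). Counts for exocytosis machinery were 5 higher and 3 lower without db/db mouse 1.

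Among the transcription factors, the best known of the mature β-cell fell. Mafa, the activator of insulin transcription that marks mature β-cells, stood at 57.0 and 91.7 CPM in db/db and 415, 325 and 424 CPM in db/+ (log2 fold change -2.38, SE 0.24, edgeR adjusted p = 0.00109). Pdx1 stood at 109 and 93.0 CPM in db/db and 165, 178 and 198 CPM in db/+ (log2 fold change -0.83, SE 0.13, edgeR adjusted p = 0.00426). Nkx6-1 stood at 257 and 176 CPM in db/db and 447, 359.7 and 349 CPM in db/+ (log2 fold change -0.83, SE 0.20, edgeR adjusted p = 0.0180). All 3 were lower in both db/db mice than in any lean mouse, and Mafa lost most. Neurod1, Isl1 and Insm1, shared by all islet endocrine cells, also fell (log2 fold changes -0.59, -0.59 and -0.69), while Pax6, Nkx2-2, Foxa2 and Hnf4a did not pass the test. Others rose. Etv1, an ETS factor, went from 26.4, 13.4 and 20.7 to 118 and 89.2 CPM (log2 fold change 2.36, SE 0.27, edgeR adjusted p = 0.00151). Foxo1, Rfx6, Ldb1 and Mlxipl (ChREBP) rose (log2 fold changes 0.65, 0.53, 1.18 and 0.65). In all 9 of 27 tested factors rose and 6 fell, and the median was 0.24, or -0.04 with length and GC offsets. Neurod1 lost its call with length and GC offsets (log2 fold change -0.32, edgeR adjusted p 0.0842), as did Isl1 (-0.36, p 0.0679) and Foxo1 (0.17, p 0.367). Nkx6-1 lost its call without db/db mouse 2 or db/+ mouse 1 (edgeR adjusted p 0.0600 to 0.0604), as did Rfx6 without db/db mouse 2 or db/+ mouse 1 (0.0694 to 0.0733) and Mlxipl without db/db mouse 2 (0.0521).

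**Figure D3:**
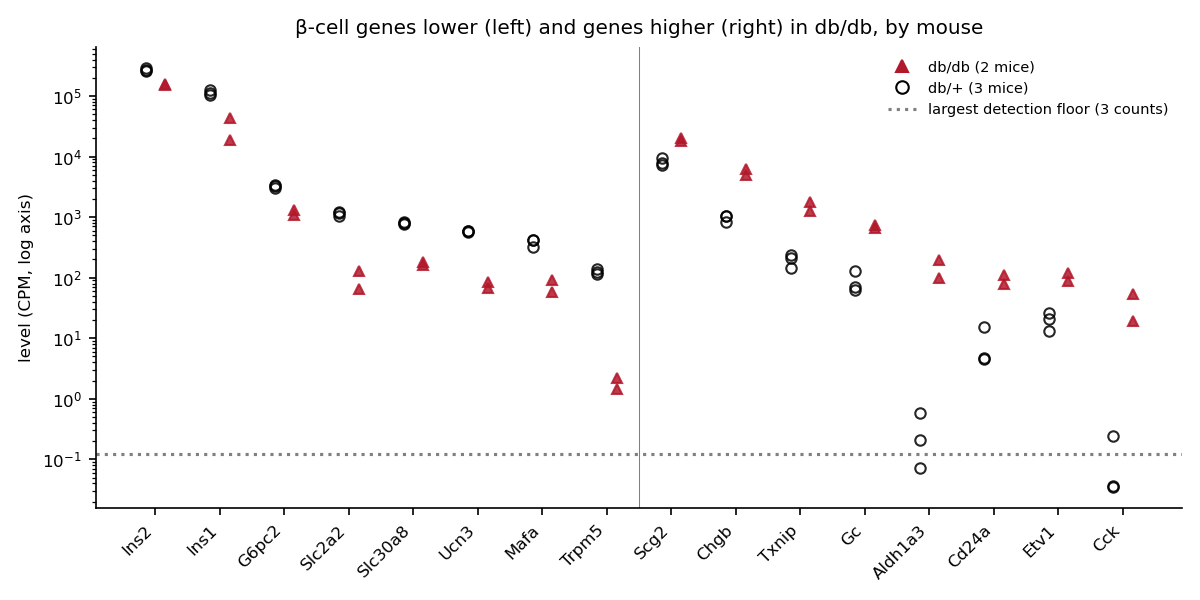
Levels in CPM (vertical log axis) of 16 genes in each mouse, db/db as filled triangles (n = 2) and db/+ as open circles (n = 3), with a dotted line at the largest detection floor, 0.123 CPM. The 16 genes were chosen to show falls and rises, and in each the 2 groups do not overlap, as in 63.3% of all genes tested. In lean mice Cck lies near or below the floor, and Aldh1a3 lies from 0.0726 CPM in mouse 2 to 0.590 CPM in mouse 3, above the floor there.

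At the entry of glucose the contrast was wide. Slc2a2, which encodes GLUT2, stood at 128 and 65.9 CPM in db/db and 1208, 1057 and 1158 CPM in db/+, 11.7-fold lower in db/db (log2 fold change -3.55, SE 0.31, edgeR adjusted p = 0.000766). The subunits of the ATP-sensitive potassium channel, Kcnj11 and Abcc8, did not pass the test. The calcium channel subunits Cacna1a and Cacna1c rose (log2 fold changes 0.96 and 0.82), and so did the repolarising potassium channel Kcnh6 (log2 fold change 1.06). Scn3a, a sodium channel, went from 7.46, 8.82 and 15.2 to 50.6 and 51.5 CPM (log2 fold change 2.28, SE 0.28, edgeR adjusted p = 0.00188). The calcium pumps that fill the ER, Atp2a2 and Atp2a3, fell, Atp2a3 with a log2 fold change of -0.83. Cacna1a lost its call with length and GC offsets (log2 fold change 0.27, edgeR adjusted p 0.256), as did Cacna1c (0.00, p 0.994).

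A cation channel fell furthest in this list. Trpm5, a calcium-activated channel known from taste cells and β-cells, stood at 2.18 and 1.43 CPM in db/db and 139, 114 and 126 CPM in db/+ (log2 fold change -6.14, SE 0.23, edgeR adjusted p = 7.85e-05). Of 24 tested genes of glucose sensing and excitation, 10 rose and 6 fell, with a median of 0.25. With length and GC offsets 4 rose and 7 fell and the median was -0.08.

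Receptors through which hormones and nutrients reach the β-cell fell more often than they rose, with 4 of 26 tested higher, 12 lower and a median of -0.45. The incretin receptors Gipr and Glp1r, through which gut hormones amplify insulin release, stood at 3.92 and 5.95 CPM in db/db and 27.0, 24.5 and 22.3 CPM in db/+ for Gipr (log2 fold change -2.32, SE 0.22, edgeR adjusted p = 0.000911) and 51.1 and 87.5 CPM in db/db and 105, 136 and 147 CPM in db/+ for Glp1r (log2 fold change -0.90, SE 0.25, edgeR adjusted p = 0.0314). Glp1r in db/db mouse 2 was nearer to the lean values than in mouse 1. The muscarinic receptor Chrm3, the α2-adrenergic receptor Adra2a, the natriuretic peptide receptor Npr1, the prolactin receptor Prlr, the adenosine receptor Adora1, the VIP receptor Vipr1 and the CRF receptor Crhr1 were also among those that fell. Npr1 stood at 3.95 and 3.45 CPM in db/db and 13.9, 11.1 and 18.3 CPM in db/+ (log2 fold change -1.97) and Adora1 at 14.7 and 10.7 CPM in db/db and 37.2, 49.6 and 35.6 CPM in db/+ (log2 fold change -1.69). Among those that rose, the prostaglandin E2 receptor Ptger3, which couples to inhibition of cAMP, went from 0.861, 0.290 and 0.972 CPM in db/+ to 312 and 27.0 CPM in db/db (log2 fold change 7.90, SE 1.12, edgeR adjusted p = 0.00277). Its levels in the db/db mice differed widely. The glucagon receptor Gcgr (log2 fold change 1.43) and the GABA-B subunit Gabbr2 (log2 fold change 1.64) rose too. Glp1r lost its call without db/db mouse 1, db/+ mouse 2 or db/+ mouse 3 (edgeR adjusted p 0.0767 to 0.0848). Ptger3 moved on the log2 scale to 5.24 without db/db mouse 1 and 8.78 without db/db mouse 2.

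Genes that mark maturity and the β-cell surface went both ways, with 6 of 17 tested higher and 6 lower. Ucn3, a peptide switched on late in β-cell maturation, stood at 66.9 and 84.6 CPM in db/db and 585, 559.9 and 582 CPM in db/+ (log2 fold change -2.93, SE 0.15, edgeR adjusted p = 0.000243), and the gap junction protein Gjd2 (connexin 36), which couples neighbouring β-cells, at 151 and 178 CPM in db/db and 327, 328 and 230.4 CPM in db/+ (log2 fold change -0.84, SE 0.19, edgeR adjusted p = 0.0137). Ttr, the carrier of thyroid hormone and retinol, went up from 521, 501 and 681 to 1886 and 1709 CPM (log2 fold change 1.66, SE 0.17, edgeR adjusted p = 0.00110). Sez6l2 and the collectrin gene Cltrn rose (log2 fold changes 1.14 and 0.83). Genes of serotonin and other transmitters were mostly lower: 5 of 8 tested fell and none rose. Maob, a mitochondrial amine oxidase, was at 37.6 and 32.5 CPM in db/db and 209, 199.6 and 200.1 CPM in db/+ (log2 fold change -2.53, SE 0.12, edgeR adjusted p = 0.000175), and Gad1, which makes GABA, at 39.1 and 26.9 CPM in db/db and 97.1, 117 and 80.0 CPM in db/+ (log2 fold change -1.57, SE 0.22, edgeR adjusted p = 0.00280). The decarboxylase Ddc, the amine transporter Slc18a1 and the GABA transaminase Abat fell (log2 fold changes -0.82, -1.10 and -0.78). Gjd2 lost its call without db/db mouse 1 (edgeR adjusted p 0.0589).

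Ranked by fold change among the called genes with at least 10 CPM on average and no overlap between groups, the 15 largest falls began with Msln (mesothelin), at 0.348 and 0.713 CPM in db/db and 41.1, 71.4 and 28.1 CPM in db/+ (log2 fold change -6.42, SE 0.57, edgeR adjusted p = 0.000778), and Trpm5. They went on with Cox6a2, a subunit of cytochrome c oxidase known from muscle, which stood at 2.41 and 1.33 CPM in db/db and 78.7, 46.2 and 89.1 CPM in db/+ (log2 fold change -5.27, SE 0.41, edgeR adjusted p = 0.000625). Also among them were the cadherin Cdh7, the thymosin Tmsb15b2, Fam151a, the gp130 receptor subunit Il6st, the B-cell receptor component Cd79a, the lipoprotein lipase Lpl, the carbonic anhydrase Car15, Tmem215, neuronatin (Nnat), Slc2a2, Klhl7 and Sst. Il6st, shared by receptors of the interleukin-6 family, stood at 8.13 and 7.02 CPM in db/db and 102, 151 and 165 CPM in db/+ (log2 fold change -4.20, SE 0.26, edgeR adjusted p = 0.000400). Fam151a stood at 10.4 and 9.04 CPM in db/db and 246, 208 and 220.5 CPM in db/+ (log2 fold change -4.53, SE 0.15, edgeR adjusted p = 7.85e-05), and Tmem215 at 19.6 and 14.7 CPM in db/db and 281, 256 and 234 CPM in db/+ (log2 fold change -3.90). Sst lost its call without db/db mouse 1 or db/db mouse 2 (edgeR adjusted p 0.0519 to 0.103). Msln moved on the log2 scale to -7.05 without db/db mouse 2.

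Aldh1a3, the enzyme that makes retinoic acid from retinaldehyde and the subject of the series, headed the rises. The gene (ENSMUSG00000015134.15, chr7:66390890-66427517 in GRCm38) stood at 97.3 and 193 CPM in db/db and 0.205, 0.0726 and 0.590 CPM in db/+ (log2 fold change 8.92, SE 0.55, edgeR adjusted p = 0.000408). Lean mouse 2 lay below its detection floor of 0.109 CPM. Lean mice 1 and 3 lay above their floors of 0.123 and 0.104 CPM. Cck, the gut and brain peptide cholecystokinin, stood at 54.4 and 19.0 CPM in db/db and 0.246, 0.0363 and 0.0347 CPM in db/+ (log2 fold change 8.47, SE 0.71, edgeR adjusted p = 0.000696). The 15 largest rises by the same rule also held, among others, the sugar transporter Slc5a10, the glutamate transporter Slc1a1, the sortilin-family receptor Sorcs2, Pianp, Epas1, C1qtnf1, the kinase Mapk4, the prolyl hydroxylase Egln3, Bmp3, Fam107b and Ankrd34b, besides Ptger3. Sorcs2 stood at 415 and 238 CPM in db/db and 1.44, 1.56 and 1.63 CPM in db/+ (log2 fold change 7.72, SE 0.28, edgeR adjusted p = 7.85e-05) and Fam107b at 96.5 and 83.5 CPM in db/db and 2.13, 1.78 and 2.60 CPM in db/+ (log2 fold change 5.37, SE 0.18, edgeR adjusted p = 7.85e-05), so genes near 2 CPM in lean mice became abundant in both db/db mice. Others rested more on db/db mouse 1. Slc5a10 stood at 285 and 41.8 CPM in db/db and 0.451, 0.508 and 0.729 CPM in db/+ (log2 fold change 8.16) and Pianp at 64.7 and 0.856 CPM in db/db and 0.369, 0.218 and 0 CPM in db/+ (log2 fold change 7.42). Pianp lost its call without db/db mouse 1, db/+ mouse 1, db/+ mouse 2 or db/+ mouse 3 (edgeR adjusted p 0.0537 to 0.287). Aldh1a3 moved on the log2 scale to 10.03 without db/+ mouse 3, Cck to 7.50 without db/db mouse 1, Slc5a10 to 6.19 without db/db mouse 1 and 8.96 without db/db mouse 2 and Pianp to 8.40 without db/db mouse 2.

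Genes known from endocrine progenitors and from dedifferentiated β-cells were mostly higher: of 18 tested, 12 rose and 2 fell, with a median log2 fold change of 2.04. Neurog3, the factor that commits progenitors to the endocrine fate, stood at 4.32 and 8.92 CPM in db/db and 1.64, 2.00 and 2.57 CPM in db/+ (log2 fold change 1.68, SE 0.37, edgeR adjusted p = 0.0129), so its level stayed low. Sox4, its partner in development, stood at 37.1 and 68.2 CPM in db/db and 14.1, 19.6 and 20.7 CPM in db/+ (log2 fold change 1.54). The surface proteins Cd24a and Cd44 stood at 78.6 and 109 CPM in db/db and 15.05, 4.79 and 4.62 CPM in db/+ (log2 fold change 3.53) and 87.0 and 119 CPM in db/db and 22.0, 27.4 and 35.5 CPM in db/+ (log2 fold change 1.86). Both were higher in each db/db mouse than in any lean mouse. Gast, the gastrin gene, stood at 3.16 and 3.71 CPM in db/db and 0.164, 0.181 and 0.486 CPM in db/+ (log2 fold change 3.60), the fetal ligand Dlk1 at 4.41 and 12.5 CPM in db/db and 0.574, 0.508 and 0.486 CPM in db/+ (log2 fold change 4.01) and the repressor Bach2 at 5.19 and 4.85 CPM in db/db and 0.246, 0.327 and 0.451 CPM in db/+ (log2 fold change 3.85). The oncogene Myc (log2 fold change 2.22) and the enkephalin gene Penk (log2 fold change 2.52) rose as well. The 2 that fell were the serotonergic factor Fev (log2 fold change -1.76) and the foregut factor Gata6 (log2 fold change -1.21). Sox9, Nanog and Pou5f1, which mark earlier or pluripotent cells, did not pass the filter on low counts. Neurog3 lost its call without db/db mouse 2 (edgeR adjusted p 0.0793), as did Myc without db/db mouse 1 (0.0509), Penk without db/db mouse 2 (0.0582) and Fev without db/db mouse 2, db/+ mouse 1 or db/+ mouse 3 (0.0704 to 0.152). Gata6 lost it without db/db mouse 1, db/+ mouse 1, db/+ mouse 2 or db/+ mouse 3 (0.0545 to 0.0583). Cd24a moved on the log2 scale to 4.32 without db/+ mouse 1, Gast to 4.28 without db/+ mouse 3 and Dlk1 to 3.07 without db/db mouse 2. Counts for progenitor and dedifferentiation genes were 11 higher and 0 lower without db/+ mouse 1 and 11 higher and 0 lower without db/+ mouse 3.

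The enzymes, carriers and receptors around Aldh1a3 were called about as often as all genes, at 40% beside 37.8%. Of 15 tested genes of retinoid handling, 5 rose (33.3%, beside 19.9% over all genes) and 1 fell. Rxra, the nuclear receptor that pairs with retinoic acid receptors, stood at 60.3 and 83.7 CPM in db/db and 27.3, 33.6 and 23.5 CPM in db/+ (log2 fold change 1.35, SE 0.20, edgeR adjusted p = 0.00296), while the retinoic acid receptors Rara and Rarg did not pass the test. Dhrs3, which turns retinaldehyde back to retinol and is a known target of retinoic acid, stood at 16.6 and 3.28 CPM in db/db and 0.410, 0.181 and 0.0347 CPM in db/+ (log2 fold change 5.59, SE 0.90, edgeR adjusted p = 0.00439). The carotene oxygenase Bco1 and the repressor Hic1 rose (log2 fold changes 1.20 and 2.93). Rbp4 fell from 56.4, 38.5 and 13.6 to 6.01 and 4.54 CPM, and Rbp4 is also a marker of δ-cells. The other retinaldehyde dehydrogenases Aldh1a1 and Aldh1a2 did not pass the filter. Rbp4 lost its call without db/db mouse 2 (edgeR adjusted p 0.0596). Dhrs3 moved on the log2 scale to 3.97 without db/db mouse 1, 6.34 without db/db mouse 2 and 6.49 without db/+ mouse 1.

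Genes called disallowed, which mature β-cells keep silent, were for the most part at or below a few CPM in all 5 libraries. Of 35 listed, 21 passed the filter, 5 rose and 1 fell, so that 28.6% of those tested were called beside 37.8% over all genes. The actin-binding protein Zyx was the most abundant that rose, at 11.03 and 16.2 CPM in db/db and 2.54, 2.72 and 4.79 CPM in db/+ (log2 fold change 2.02, SE 0.32, edgeR adjusted p = 0.00414). The lactate transporter Slc16a1 stood at 0.319 and 0.452 CPM in db/db and 0.0410, 0 and 0.104 CPM in db/+ and missed the threshold (edgeR adjusted p = 0.0647). Ldha and the hexokinases Hk1 and Hk2 did not pass the filter. Slc16a1 passed the threshold without db/+ mouse 3 (edgeR adjusted p 0.0492). Counts for disallowed genes were 1 higher and 1 lower without db/db mouse 2, 2 higher and 0 lower without db/+ mouse 1 and 1 higher and 1 lower without db/+ mouse 2.

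Genes that respond to glucose were prominent among the rises. ChREBP (Mlxipl) is a factor activated by sugar metabolites that binds pairs of E-boxes, and its best known targets are Txnip and Arrdc4. Their arrestin-domain proteins limit the uptake of glucose. The stretch of 250 bases before the start of each gene is shown because both lie upstream of large rises (RefSeq, GRCm38.p6). For Txnip it is chr3:96557707-96557956, + strand, and capitals mark the match to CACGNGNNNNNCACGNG, the spelling of a paired E-box searched on both strands, which begins 85 bases before the start. For Arrdc4 it is chr7:68749239-68749488, - strand, and capitals mark a single E-box, CACGTG, beginning 193 bases before the start.
Txnip: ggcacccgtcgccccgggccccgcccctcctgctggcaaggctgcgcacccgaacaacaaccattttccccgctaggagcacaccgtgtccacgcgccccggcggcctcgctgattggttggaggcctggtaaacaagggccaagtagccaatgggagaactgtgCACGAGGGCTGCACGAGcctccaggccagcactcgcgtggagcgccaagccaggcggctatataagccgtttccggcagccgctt
Arrdc4: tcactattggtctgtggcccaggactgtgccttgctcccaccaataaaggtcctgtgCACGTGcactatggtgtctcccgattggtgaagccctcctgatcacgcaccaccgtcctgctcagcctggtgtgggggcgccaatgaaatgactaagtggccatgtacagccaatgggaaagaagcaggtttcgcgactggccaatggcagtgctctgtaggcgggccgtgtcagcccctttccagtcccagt
The paired spelling was held by a promoter of 0.0518% of the 27025 genes with a promoter of this length and by 1 of the 10 genes found for the list, Txnip. A CACGTG was held by a promoter of 6.86% of all genes, and of Arrdc4, Khk and Mlxipl.

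Txnip stood at 1782 and 1271 CPM in db/db and 233, 144 and 210.1 CPM in db/+, 7.80-fold higher in db/db (log2 fold change 2.96, SE 0.24, edgeR adjusted p = 0.000681), and was the fourth largest gain in CPM among called genes. Arrdc4 stood at 103 and 49.9 CPM in db/db and 10.7, 10.3 and 7.85 CPM in db/+ (log2 fold change 2.99, SE 0.31, edgeR adjusted p = 0.00109). In both, db/db mouse 1 was above mouse 2 and every lean mouse was far below. Gpd1, which feeds glycerol phosphate to lipids, stood at 108 and 77.1 CPM in db/db and 32.1, 29.8 and 23.4 CPM in db/+ (log2 fold change 1.70, SE 0.19, edgeR adjusted p = 0.00137). The regulator of G proteins Rgs16 (log2 fold change 1.77), the zinc finger factor Klf10 (log2 fold change 1.90), the lipogenic factor Thrsp (log2 fold change 1.37) and Mlxipl itself also rose. Pyruvate kinase Pklr was high in db/db mouse 1 alone, at 61.1 and 11.8 CPM in db/db and 16.2, 16.9 and 16.2 CPM in db/+, and did not pass the test. Khk, or ketohexokinase, fell (log2 fold change -1.38). In all, 9 of 13 tested genes rose and 1 fell, with a median of 1.37. Pklr passed the threshold without db/db mouse 2 (log2 fold change 1.89, edgeR adjusted p 0.000524). Thrsp lost its call without db/db mouse 1 (edgeR adjusted p 0.0778). Arrdc4 moved on the log2 scale to 2.37 without db/db mouse 1, Rgs16 to 0.98 without db/db mouse 1 and Klf10 to 1.31 without db/db mouse 1.

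Glycolysis genes went both ways: of 21 tested genes 4 rose and 6 fell, with a median of -0.15. The regulator Pfkfb3, whose product stimulates phosphofructokinase, went from 3.20, 4.03 and 1.91 CPM in db/+ to 89.96 and 34.2 CPM in db/db (log2 fold change 4.35, SE 0.46, edgeR adjusted p = 0.00122), while the β-cell isoform Pfkfb2 fell to 33.0 and 33.7 CPM from 68.6, 67.4 and 75.4 CPM (log2 fold change -1.08, SE 0.11, edgeR adjusted p = 0.00102). The isomerase Gpi1 rose (log2 fold change 1.63), at 475 and 199.7 CPM in the 2 db/db mice. The glucose transporter Slc2a1 (GLUT1) fell (log2 fold change -2.96), as did Eno2 and Ldhb. Genes listed for the response to hypoxia split as well, with 5 of 18 higher and 4 lower. Epas1 (HIF-2α) stood at 20.1 and 47.2 CPM in db/db and 0.287, 0.544 and 0.208 CPM in db/+ (log2 fold change 6.59, SE 0.50, edgeR adjusted p = 0.000577) and Egln3, which marks such factors for destruction, at 62.1 and 15.3 CPM in db/db and 0.410, 1.16 and 0.313 CPM in db/+ (log2 fold change 5.93). Vegfa and Ndrg1 fell (log2 fold changes -0.56 and -1.54). Pfkfb3 moved on the log2 scale to 3.48 without db/db mouse 1, Gpi1 to 0.87 without db/db mouse 1, Slc2a1 to -4.04 without db/db mouse 2 and Ndrg1 to -2.27 without db/db mouse 2.

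At the gate of the mitochondrion, genes of pyruvate use and their regulators changed. Pcx, which carboxylates pyruvate to refill the cycle, stood at 27.0 and 36.0 CPM in db/db and 158, 166 and 152 CPM in db/+ (log2 fold change -2.33, SE 0.16, edgeR adjusted p = 0.000447). Mpc1, a subunit of the carrier that lets pyruvate in, stood at 14.5 and 17.4 CPM in db/db and 44.2, 38.8 and 33.1 CPM in db/+ (log2 fold change -1.28, SE 0.17, edgeR adjusted p = 0.00214). The kinases that switch off pyruvate dehydrogenase rose, with Pdk1 at 148 and 71.5 CPM in db/db and 26.4, 33.9 and 32.2 CPM in db/+ (log2 fold change 1.83, SE 0.29, edgeR adjusted p = 0.00397), Pdk4 at 8.76 and 9.27 CPM in db/db and 0.0820, 0.689 and 0.104 CPM in db/+ (log2 fold change 4.91) and Pdk2 by a smaller step (log2 fold change 0.78), and the opposing phosphatase Pdp1 fell (log2 fold change -0.83). Among genes of the cycle itself Idh2, Idh3a, Ogdh, Sdha and Sdhc fell, Ogdh from 273, 252 and 295 to 141 and 138 CPM (log2 fold change -0.97), and the cytosolic Idh1 rose (log2 fold change 0.84). Gpd2, the mitochondrial end of the glycerol phosphate shuttle, fell (log2 fold change -0.92). Of 44 genes tested 4 rose and 11 fell, 34.1% in all beside 37.8% over all genes. With length and GC offsets 6 rose and 11 fell. Pdp1 lost its call with length and GC offsets (log2 fold change -0.52, edgeR adjusted p 0.0634). Pdk1 moved on the log2 scale to 1.21 without db/db mouse 1 and Pdk4 to 6.53 without db/+ mouse 2.

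All 13 proteins encoded by mitochondrial DNA, subunits of the respiratory chain and ATP synthase, were lower, with a median of -1.63. The most abundant, mt-Co1, stood at 14526 and 15042 CPM in db/db and 65873, 60094 and 37203 CPM in db/+ (log2 fold change -1.88, SE 0.31, edgeR adjusted p = 0.00470) and mt-Atp6 at 6073 and 7325 CPM in db/db and 25806, 24024 and 14548 CPM in db/+ (log2 fold change -1.68, SE 0.30, edgeR adjusted p = 0.00647). Mitochondrial genes took 7.36% and 8.50% of counts in db/db and 21.3%, 19.9% and 12.1% in db/+ (7.93% ± 0.808 and 17.8% ± 4.96, SD, n = 2 and 3, exact permutation test, two-sided p = 0.200). The lean mice thus differed among themselves, with mouse 3 between its companions and the db/db mice. With length and GC offsets the median was -0.73 and 4 of the 13 were called lower. mt-Atp6 lost its call with length and GC offsets (log2 fold change -0.78, edgeR adjusted p 0.0586). With those offsets mt-Co1 moved to -1.29 on the log2 scale.

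Subunits of the same complexes are also encoded in the nucleus. Of 79 tested, 2 rose and 38 fell, with a median of -0.34. Ndufb2 and Ndufs8 of complex I, Cox6c and Cox8a of complex IV and Atp5e and Atp5k of ATP synthase were among those that fell (log2 fold changes -0.97, -0.89, -0.82, -0.70, -0.80 and -0.78), and Ndufa1 and Ndufc2 rose (log2 fold changes 0.67 and 0.60). With length and GC offsets 8 rose, 19 fell and the median was -0.14. Among mitochondrial ribosomal proteins 15 of 78 fell (19.2%, beside 18.0% over all genes) and none rose, against 6 and 4 with offsets. Of cytosolic ribosomal proteins 8 of 82 were higher and 2 lower (12.2% in all, beside 37.8% over all genes), or 39 and 1 with offsets. Many of these genes have near-identical copies that could share reads. Ndufa1 lost its call without db/db mouse 2, db/+ mouse 1 or db/+ mouse 2 (edgeR adjusted p 0.0729 to 0.0771). Counts for nuclear respiratory chain and ATP synthase were 1 higher and 24 lower without db/+ mouse 1 and 1 higher and 24 lower without db/+ mouse 2. Counts for mitochondrial ribosomal proteins were 0 higher and 9 lower without db/+ mouse 1. Counts for cytosolic ribosomal proteins were 4 higher and 4 lower without db/db mouse 2, 4 higher and 1 lower without db/+ mouse 1, 3 higher and 2 lower without db/+ mouse 2 and 5 higher and 2 lower without db/+ mouse 3.

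**Figure D4:**
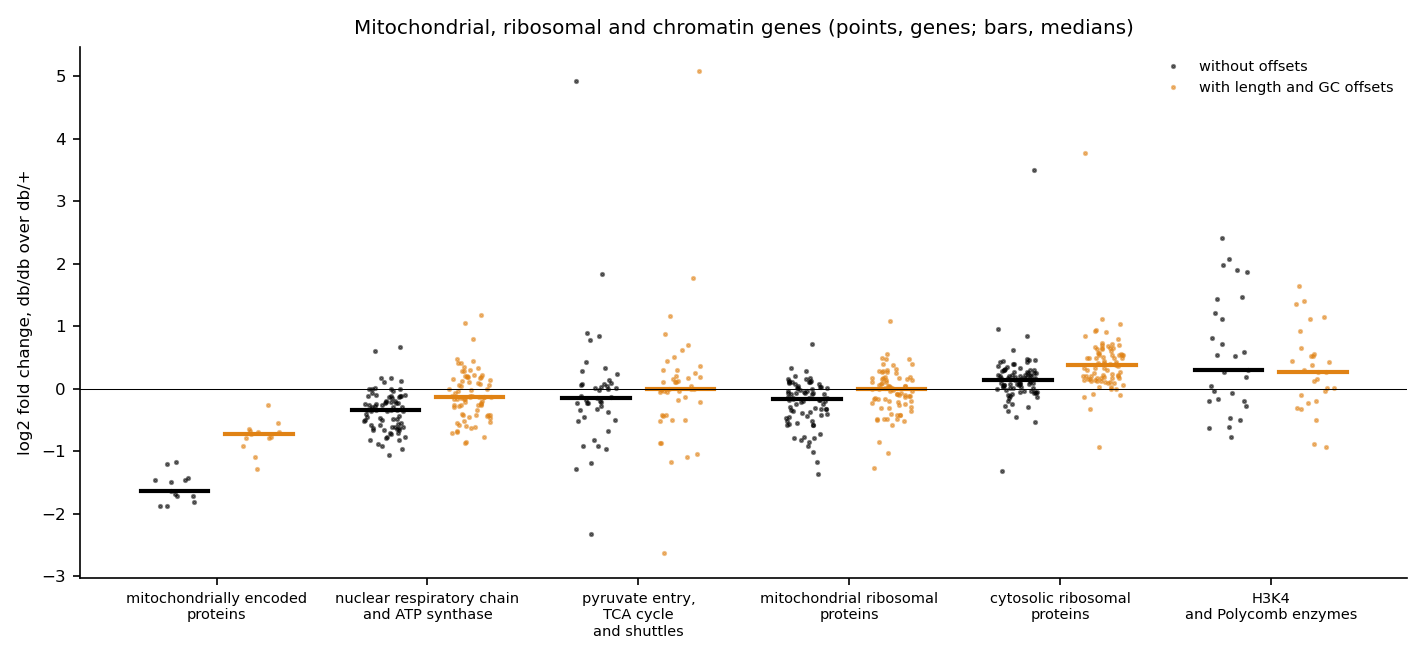
Log2 fold change of db/db over db/+ for each tested member of the mitochondrial, pyruvate and TCA, ribosomal, and H3K4 and Polycomb lists (points, jittered sideways, with horizontal bars at the medians), from the fit without and the fit with length and GC offsets. The median of the mitochondrially encoded genes stays below 0 in both, at -1.63 and -0.73.

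Genes of sterol and fatty acid synthesis often rose. The enzymes from acetyl-CoA to cholesterol are switched on by SREBP-2, which binds sterol response elements when membranes are short of sterol. The promoter of Hmgcs1, the HMG-CoA synthase of the cytosol, is shown because it was the only one of the 25 genes found for the list with the spelling TCACNCCAC on either strand (RefSeq, GRCm38.p6, chr13:119690101-119690350, + strand). Capitals mark the match, which begins 137 bases before the start, and a promoter of 1.23% of all genes held it.
Hmgcs1: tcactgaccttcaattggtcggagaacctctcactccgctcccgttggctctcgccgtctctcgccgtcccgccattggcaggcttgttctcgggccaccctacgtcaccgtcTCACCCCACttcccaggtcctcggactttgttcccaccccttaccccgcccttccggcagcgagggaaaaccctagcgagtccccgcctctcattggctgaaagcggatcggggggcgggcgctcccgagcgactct
Hmgcs1 stood at 98.1 and 160.5 CPM in db/db and 44.2, 41.4 and 26.9 CPM in db/+ (log2 fold change 1.79, SE 0.27, edgeR adjusted p = 0.00344). Both db/db mice lay above every lean mouse, and db/db mouse 2 was the highest of all 5.

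In all, 22 of 36 genes of sterol and fatty acid synthesis rose and 5 fell, with a median of 0.98. The enzymes Hsd17b7 and Idi1 rose (log2 fold changes 2.33 and 1.97), and so did the sterol sensor Insig1 (log2 fold change 1.19). Without db/db mouse 2 the median was 0.57 with 18 higher, and without db/db mouse 1 it was 1.16 with 28 higher. Of the 36 genes, 32 were higher in db/db mouse 2 than in mouse 1. Of genes known from fatty acid synthesis, Fasn, Acaca, Elovl6 and Fads2 rose (log2 fold changes 1.11, 1.59, 1.49 and 1.50), while Srebf1, Elovl5 and Acss2 fell (log2 fold changes -0.52, -1.50 and -1.25). Fasn lost its call with length and GC offsets (log2 fold change 0.22, edgeR adjusted p 0.209). Srebf1 lost its call without db/db mouse 1 or db/+ mouse 2 (edgeR adjusted p 0.0596 to 0.0746). Hsd17b7 moved on the log2 scale to 1.56 without db/db mouse 2, Acaca to 0.92 without db/db mouse 1 and Fads2 to 0.84 without db/db mouse 2. Counts for sterol and fatty acid synthesis were 28 higher and 2 lower without db/db mouse 1 and 20 higher and 3 lower without db/+ mouse 2.

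Lipid uptake and burning changed in both directions, with 12 of 38 genes higher and 7 lower. Lpl, which frees fatty acids from lipoproteins, stood at 9.78 and 10.2 CPM in db/db and 178, 144 and 148 CPM in db/+ (log2 fold change -3.98, SE 0.15, edgeR adjusted p = 7.85e-05). The fatty acid carrier Cd36 stood at 12.4 and 10.3 CPM in db/db and 0.328, 0.327 and 1.18 CPM in db/+ (log2 fold change 4.18, SE 0.52, edgeR adjusted p = 0.00183). The gene of the fasting receptor PPARα, Ppara, its coactivator Ppargc1a and the target Angptl4 rose from low levels (log2 fold changes 4.36, 3.36 and 4.20). Cpt1a, the gate of fatty acid oxidation, stood at 93.6 and 112 CPM in db/db and 43.3, 48.5 and 46.6 CPM in db/+ (log2 fold change 1.16, SE 0.12, edgeR adjusted p = 0.00110), and the proton carrier Ucp2 at 466 and 477 CPM in db/db and 193, 223 and 226 CPM in db/+ (log2 fold change 1.14, SE 0.12, edgeR adjusted p = 0.00112). Hadh, an enzyme of β-oxidation that is abundant in β-cells and restrains insulin release, fell to 312 and 364 CPM from 940.4, 916 and 815 CPM (log2 fold change -1.40, SE 0.14, edgeR adjusted p = 0.00109). Cd36 moved on the log2 scale to 5.10 without db/+ mouse 3, Ppara to 3.32 without db/db mouse 1 and 4.96 without db/db mouse 2, Ppargc1a to 2.32 without db/db mouse 1 and 3.96 without db/db mouse 2 and Angptl4 to 4.82 without db/+ mouse 1.

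In the lists of the ER, where proinsulin folds, and of transport from it, 20% to 34.6% of tested genes were called, beside 37.8% over all genes. Of 27 chaperones and folding enzymes 2 rose and 6 fell, and Hspa5 (BiP), the central chaperone, was at 1233 and 989 CPM in db/db and 1028, 744 and 1174 CPM in db/+ with overlapping groups. Ero1b, the oxidase that drives disulfide formation in β-cells, stood at 586 and 710.3 CPM in db/db and 2301, 1888 and 2469.95 CPM in db/+ (log2 fold change -1.78, SE 0.19, edgeR adjusted p = 0.00114), and the peroxiredoxin of the ER, Prdx4, at 51.7 and 68.9 CPM in db/db and 18.1, 18.5 and 19.2 CPM in db/+ (log2 fold change 1.70, SE 0.14, edgeR adjusted p = 0.000698). Of 26 genes of the unfolded protein response and ER-associated degradation 6 rose and 3 fell. Edem2, Erlec1, Os9 and Sel1l, which hand misfolded proteins to degradation, rose (log2 fold changes 1.14, 0.94, 0.87 and 0.59), while Atf6b fell (log2 fold change -1.48), and the sensors Ern1, Eif2ak3 and Atf6 did not pass the test. In translocation 4 of 30 rose and 2 fell, and in COPII, COPI and Golgi transport 5 of 32 rose and 4 fell. Kdelr3, a receptor that returns ER proteins, went from 3.44, 2.94 and 5.21 to 46.4 and 18.7 CPM (log2 fold change 3.07). The 2 db/db mice differed here: 22 of 27 chaperones, 29 of 30 translocation genes and 30 of 32 transport genes were higher in mouse 1 than in mouse 2. Kdelr3 moved on the log2 scale to 2.27 without db/db mouse 1. Counts for ER chaperones and folding were 3 higher and 1 lower without db/db mouse 2, 1 higher and 1 lower without db/+ mouse 1 and 4 higher and 3 lower without db/+ mouse 3. Counts for UPR sensors and ER-associated degradation were 5 higher and 5 lower without db/db mouse 1. Counts for ER translocation, glycosylation and signal cleavage were 0 higher and 5 lower without db/db mouse 1, 3 higher and 0 lower without db/db mouse 2, 0 higher and 0 lower without db/+ mouse 1 and 0 higher and 2 lower without db/+ mouse 2. Counts for COPII, COPI and Golgi transport were 3 higher and 10 lower without db/db mouse 1, 5 higher and 2 lower without db/db mouse 2, 3 higher and 3 lower without db/+ mouse 1 and 3 higher and 4 lower without db/+ mouse 2.

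Genes under ATF4, the factor of the integrated stress response that raises amino acid synthesis and transport, leaned lower, with 4 of 27 higher and 10 lower and a median of -0.50. Atf5 stood at 41.3 and 41.3 CPM in db/db and 149, 152 and 128 CPM in db/+ (log2 fold change -1.80, SE 0.12, edgeR adjusted p = 0.000447), the amino acid transporter subunit Slc3a2 at 81.3 and 102 CPM in db/db and 232, 209.7 and 220.3 CPM in db/+ (log2 fold change -1.27, SE 0.14, edgeR adjusted p = 0.00124) and the folate enzyme Mthfd2 at 18.1 and 19.6 CPM in db/db and 46.9, 67.7 and 55.0 CPM in db/+ (log2 fold change -1.58, SE 0.18, edgeR adjusted p = 0.00136). Atf4, Ddit3 (CHOP), Asns, Psat1, Shmt2 and Nupr1 fell as well. Atf3 (log2 fold change 4.19), Ppp1r15a (GADD34, log2 fold change 1.82), Ddit4 (log2 fold change 1.38) and Cebpb (log2 fold change 1.03) rose. Of the 20 cytosolic aminoacyl-tRNA synthetases, which charge tRNAs for translation, 11 fell and 1 rose. Mars1 fell furthest, to 16.9 and 13.5 CPM from 55.7, 64.5 and 62.4 CPM (edgeR adjusted p = 0.000535), and between 10 and 11 fell in each fit that left out 1 library. Ddit3 lost its call with length and GC offsets (log2 fold change -0.41, edgeR adjusted p 0.0681). Cebpb lost its call without db/db mouse 2 (edgeR adjusted p 0.0576), as did Atf4 without db/+ mouse 1, db/+ mouse 2 or db/+ mouse 3 (0.0720 to 0.0955). Atf3 moved on the log2 scale to 3.28 without db/db mouse 1 and 5.19 without db/+ mouse 3.

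Immediate early genes, which are induced within minutes by calcium, cAMP or stress, including stress of tissue handling, were among the lists with most rises. Of 29 tested 20 rose and 2 fell, with a median of 1.61. Egr1 stood at 727 and 347 CPM in db/db and 36.3, 29.7 and 42.1 CPM in db/+ (log2 fold change 3.90, SE 0.32, edgeR adjusted p = 0.000673). Jun stood at 383 and 181 CPM in db/db and 23.7, 18.6 and 23.7 CPM in db/+ (log2 fold change 3.68, SE 0.31, edgeR adjusted p = 0.000697) and Fos at 764 and 358 CPM in db/db and 134, 118 and 132 CPM in db/+ (log2 fold change 2.13, SE 0.29, edgeR adjusted p = 0.00251). Arc, known from active neurons, stood at 63.0 and 35.0 CPM in db/db and 1.76, 2.47 and 2.60 CPM in db/+ (log2 fold change 4.42, SE 0.30, edgeR adjusted p = 0.000447). Each was highest in db/db mouse 1, and 25 of the 29 were higher there than in mouse 2. Fosb, Klf4, Sik1 and the phosphatase Dusp1 rose too (log2 fold changes 3.51, 4.66, 3.41 and 1.29), the calcium-induced factors Npas4 and Nr4a1 did not pass the test, and Crem and Fbxo33 fell (log2 fold changes -1.06 and -0.50). The time from death or digestion to sorting is not given per mouse, and its part in these values was not tested. Fbxo33 lost its call without db/db mouse 1, db/+ mouse 1 or db/+ mouse 2 (edgeR adjusted p 0.0604 to 0.0730). Egr1 moved on the log2 scale to 3.26 without db/db mouse 1, Jun to 3.03 without db/db mouse 1, Fos to 1.48 without db/db mouse 1, Fosb to 2.82 without db/db mouse 1 and Dusp1 to 0.69 without db/db mouse 1.

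Clock genes differed most in db/db mouse 2. Per1 stood at 30.8 and 70.1 CPM in db/db and 15.2, 12.1 and 16.5 CPM in db/+ (log2 fold change 1.79, SE 0.33, edgeR adjusted p = 0.00685), Per2 at 7.55 and 25.2 CPM in db/db and 6.23, 5.59 and 5.28 CPM in db/+ (log2 fold change 1.52, SE 0.45, edgeR adjusted p = 0.0353) and Cry2 at 111 and 278 CPM in db/db and 72.4, 108 and 87.0 CPM in db/+ (log2 fold change 1.12, SE 0.36, edgeR adjusted p = 0.0482). Nr1d1, Dbp and Tef, which cycle with the clock, differed between the 2 db/db mice by more than the groups did and did not pass the test, Nr1d1 at 19.7 and 79.2 CPM in db/db and 32.3, 29.4 and 33.1 CPM in db/+ and Dbp at 9.20 and 35.3 CPM in db/db and 35.8, 46.6 and 23.9 CPM in db/+. Bhlhe40 (log2 fold change 2.12) rose and was higher in db/db mouse 1. Of 19 tested 8 rose and 0 fell, with a median of 0.65, or 0.14 without db/db mouse 2. The hour of collection is not given per mouse. CACGTG, the E-box to which the clock factors bind, was held by at least 1 promoter of Bhlhe41, Ciart, Cry1, Per1 and Tef, 5 of the 16 genes found. Per2 lost its call with length and GC offsets (log2 fold change 1.13, edgeR adjusted p 0.0800), as did Cry2 (0.89, p 0.0916). Dbp passed the threshold without db/db mouse 2 (log2 fold change -1.94, edgeR adjusted p 0.0162). Nr1d1 passed the threshold without db/db mouse 1 (log2 fold change 1.32, edgeR adjusted p 0.00169) and without db/db mouse 2 (log2 fold change -0.68, edgeR adjusted p 0.0157). Per2 lost its call without db/db mouse 2, db/+ mouse 1, db/+ mouse 2 or db/+ mouse 3 (edgeR adjusted p 0.0802 to 0.215), as did Cry2 without db/db mouse 2, db/+ mouse 1, db/+ mouse 2 or db/+ mouse 3 (0.0709 to 0.326) and Cry1 without db/db mouse 2 or db/+ mouse 2 (0.0554 to 0.0872). Per1 moved on the log2 scale to 1.08 without db/db mouse 2 and Per2 to 2.14 without db/db mouse 1. Counts for circadian clock were 3 higher and 4 lower without db/db mouse 2, 5 higher and 0 lower without db/+ mouse 1 and 4 higher and 0 lower without db/+ mouse 2.

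**Figure D5:**
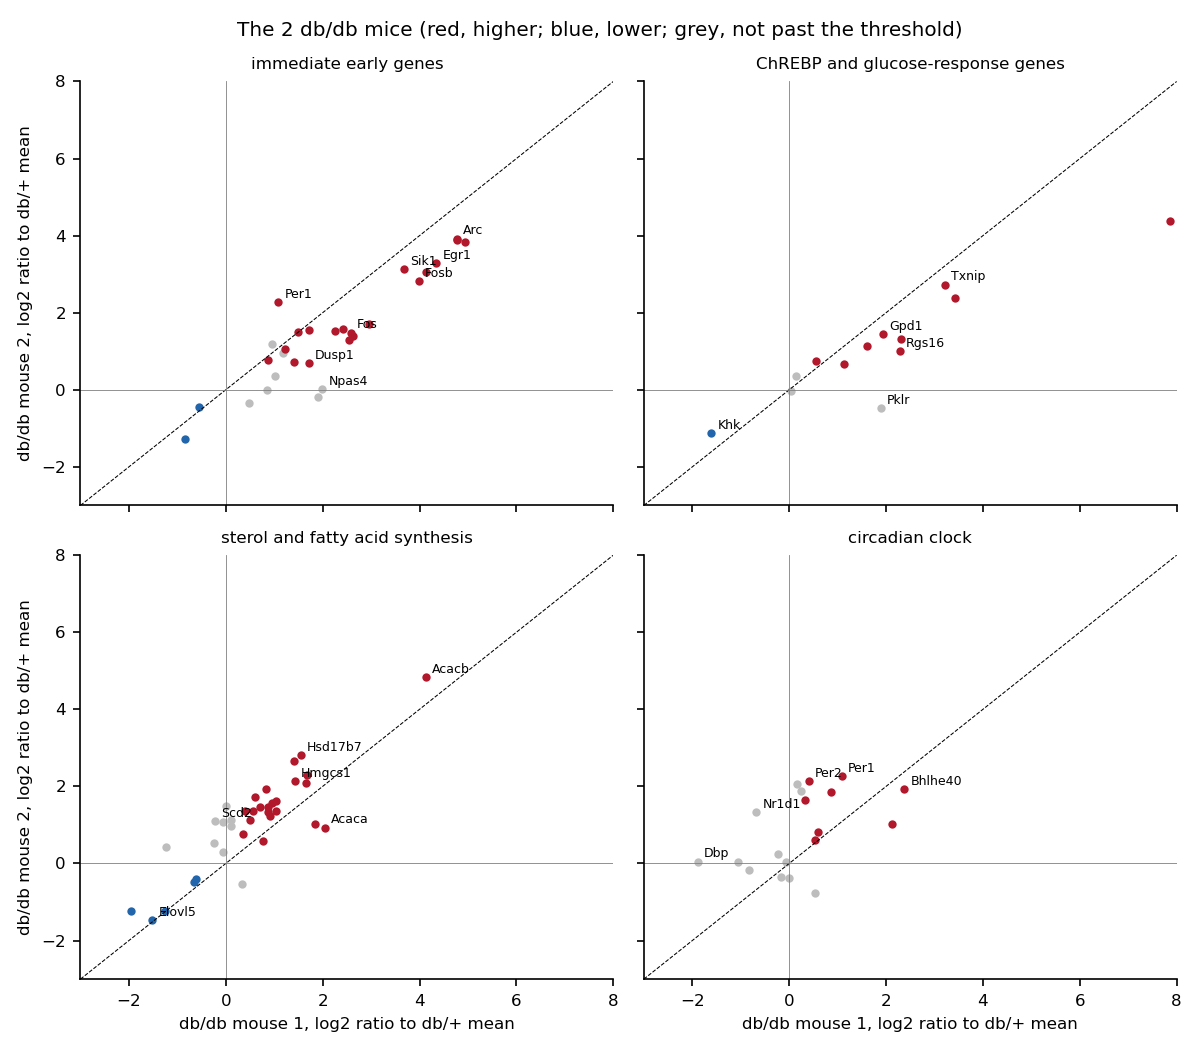
Log2 ratio of each db/db mouse to the mean of the 3 lean mice, mouse 1 on the horizontal and mouse 2 on the vertical axis, for tested members of 4 lists, with a dashed line where both mice are equal. Immediate early genes lie mostly below the line (25 of 29) and sterol and fatty acid genes mostly above it (32 of 36).

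Most genes of DNA replication and mitosis were at a few CPM. Of 38 tested 1 rose and 5 fell, 15.8% in all beside 37.8% over all genes. The licensing helicases Mcm5 and Mcm6 and the clamp Pcna fell, Mcm6 from 15.01, 12.6 and 18.4 to 4.67 and 5.92 CPM (log2 fold change -1.53, SE 0.22, edgeR adjusted p = 0.00299), and Ccnd2, the main D cyclin of β-cells, from 839, 744 and 854 to 393 and 366 CPM (log2 fold change -1.10, SE 0.13, edgeR adjusted p = 0.00164). Mki67 rose, at 1.97 and 9.11 CPM in db/db and 1.03, 0.798 and 0.764 CPM in db/+ (log2 fold change 2.69), chiefly in db/db mouse 2. Mitotic genes such as Cdk1, Top2a and Foxm1 did not pass the test and were lower in db/db mouse 1 than in mouse 2. Among inhibitors of the cell cycle Cdkn1a (p21) stood at 69.5 and 87.5 CPM in db/db and 19.6, 23.8 and 17.0 CPM in db/+ (log2 fold change 1.96, SE 0.17, edgeR adjusted p = 0.000769), while Cdkn1b (p27) and Cdkn1c (p57) fell (log2 fold changes -0.84 and -3.37). The senescence gene Cdkn2a (p16 and p19) was at 1.71 and 0.785 CPM in db/db and 0.656, 0.290 and 0.938 CPM in db/+ and did not pass the test. In that list 4 of 21 rose and 5 fell, 42.9% in all. Mki67 lost its call without db/db mouse 2 or db/+ mouse 2 (edgeR adjusted p 0.0524 to 0.141). Mki67 moved on the log2 scale to 3.39 without db/db mouse 1 and Cdkn1c to -2.71 without db/db mouse 1 and -4.77 without db/db mouse 2. Counts for DNA replication and mitosis were 0 higher and 11 lower without db/db mouse 2.

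The leptin receptor gene Lepr, mutated in these mice, was at 0.145 and 0.0951 CPM in db/db and 0.123, 0 and 0 CPM in db/+ and did not pass the filter, so these cells give no check of the genotype. Of 18 genes of the cytokine receptor pathway 3 rose and 7 fell. The prolactin receptor Prlr stood at 195 and 178 CPM in db/db and 435, 381 and 370.1 CPM in db/+ (log2 fold change -1.09, SE 0.13, edgeR adjusted p = 0.00157), and Jak1, Stat5b, Stat6 and the feedback inhibitor Socs2 fell too, Socs2 to 9.11 and 4.26 CPM from 28.3, 39.6 and 13.0 CPM (log2 fold change -2.02). The phosphatase Ptpn1 was among the 3 that rose (log2 fold change 0.63). In insulin and IGF signalling 5 of 29 rose and 5 fell (34.5% in all, beside 37.8% over all genes), against 3 and 10 with length and GC offsets. The adaptor Irs2, a target of FoxO and cAMP, stood at 64.6 and 66.8 CPM in db/db and 15.3, 15.4 and 22.4 CPM in db/+ (log2 fold change 1.89, SE 0.18, edgeR adjusted p = 0.000955), and the factors Foxo1 and Foxo3 rose (log2 fold changes 0.65 and 1.20). The receptors Insr and Igf1r did not pass the test. Igfbp5, which binds IGFs, stood at 0.696 and 0.642 CPM in db/db and 12.0, 16.6 and 7.54 CPM in db/+ (log2 fold change -4.16, SE 0.41, edgeR adjusted p = 0.00101). Socs2 lost its call without db/db mouse 2, db/+ mouse 1 or db/+ mouse 2 (edgeR adjusted p 0.0599 to 0.102), as did Stat6 without db/db mouse 1, db/+ mouse 1 or db/+ mouse 2 (0.0560 to 0.0618). Socs2 moved on the log2 scale to -2.67 without db/db mouse 1. Counts for leptin, prolactin and JAK-STAT genes were 1 higher and 5 lower without db/db mouse 2, 1 higher and 4 lower without db/+ mouse 1 and 1 higher and 4 lower without db/+ mouse 2. Counts for insulin and IGF signalling were 7 higher and 3 lower without db/db mouse 1, 5 higher and 2 lower without db/+ mouse 1 and 5 higher and 2 lower without db/+ mouse 2.

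In TGF-β and BMP signalling 7 of 27 rose and 3 fell, 37.0% in all beside 37.8% over all genes. The ligands Gdf10 and Tgfb3 stood at 32.4 and 13.0 CPM in db/db and 0.0820, 0.0363 and 0.139 CPM in db/+ (log2 fold change 7.97) and 7.66 and 5.26 CPM in db/db and 0.984, 0.544 and 1.04 CPM in db/+ (log2 fold change 2.91). The receptor Tgfbr1 fell (log2 fold change -1.06), as did Smad3 (log2 fold change -2.60), while Smad1 rose (log2 fold change 0.84). Of 31 tested genes of interferon and antigen presentation 7 fell (22.6%, beside 18.0% over all genes) and 0 rose (beside 19.9%). B2m, the light chain of MHC class I, stood at 11.4 and 10.4 CPM in db/db and 32.4, 44.5 and 33.3 CPM in db/+ (log2 fold change -1.75, SE 0.18, edgeR adjusted p = 0.00110), and the immunoproteasome subunits Psmb8 and Psmb9 fell (log2 fold changes -1.03 and -1.69), while the heavy chains H2-K1 and H2-D1 did not pass the test. B2m moved to -1.08 on the log2 scale with length and GC offsets. Smad3 lost its call without db/db mouse 1 or db/+ mouse 1 (edgeR adjusted p 0.0558 to 0.0631), as did Psmb8 without db/db mouse 1 (0.0552). Gdf10 moved on the log2 scale to 7.16 without db/db mouse 1 and Smad3 to -3.46 without db/db mouse 2. Counts for TGF-β, BMP and Id genes were 8 higher and 1 lower without db/db mouse 1 and 6 higher and 1 lower without db/+ mouse 1. Counts for interferon and antigen presentation were 3 higher and 6 lower without db/db mouse 2.

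Chromatin enzymes changed in both directions. The H3K4 methyltransferases, large proteins that mark active genes, all rose: Kmt2a, Kmt2b, Kmt2c, Kmt2d, Kmt2e, Setd1a and Setd1b were higher (log2 fold changes 2.07, 1.22, 1.47, 2.41, 1.90, 1.44 and 1.11). Kmt2d went from 11.3, 11.7 and 21.05 to 79.5 and 76.6 CPM (log2 fold change 2.41, SE 0.27, edgeR adjusted p = 0.00137). Their transcripts are among the longest, and with length and GC offsets the fold change of Kmt2d was 1.15 (edgeR adjusted p = 0.00536). The H3K27 demethylase Kdm6b and the Polycomb cofactor Jarid2 rose (log2 fold changes 1.98 and 1.87), and the Polycomb proteins Ezh1, Rnf2, Bmi1 and Cbx7 fell (log2 fold changes -0.78, -0.61, -0.63 and -0.47). In all, 11 of 29 rose, 5 fell and 13 did not pass the test. Setd1b lost its call with length and GC offsets (log2 fold change 0.30, edgeR adjusted p 0.0715), as did Rnf2 (-0.23, p 0.105). With those offsets Kmt2a moved to 1.11, Kmt2b to 0.44, Kmt2c to 0.65 and Kdm6b to 1.35 on the log2 scale. Cbx7 lost its call without db/db mouse 1, db/+ mouse 1 or db/+ mouse 2 (edgeR adjusted p 0.0767 to 0.0882). Counts for H3K4 and Polycomb enzymes were 10 higher and 3 lower without db/db mouse 1, 10 higher and 3 lower without db/+ mouse 1 and 10 higher and 3 lower without db/+ mouse 2.

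Protein turnover and redox defence went both ways. Of 39 proteasome genes 4 rose and 4 fell, 20.5% in all beside 37.8% over all genes. Of 35 autophagy and lysosome genes 7 rose and 11 fell, 51.4% in all. The lysosomal membrane protein Lamp2 stood at 136 and 131 CPM in db/db and 312, 307 and 274 CPM in db/+ (log2 fold change -1.16, SE 0.12, edgeR adjusted p = 0.00102), while the kinase Ulk1, which starts autophagy, and the protease Ctsz rose (log2 fold changes 1.04 and 1.12). Of 34 antioxidant genes 3 rose and 9 fell, 35.3% in all beside 37.8% over all genes. The secreted glutathione peroxidase Gpx3 stood at 817 and 1240.04 CPM in db/db and 338, 301 and 194 CPM in db/+ (log2 fold change 1.89, SE 0.27, edgeR adjusted p = 0.00299), the membrane-protecting Gpx4 fell (log2 fold change -0.60), and Nqo1, a target of NRF2, stood at 1.45 and 2.19 CPM in db/db and 8.69, 9.40 and 7.15 CPM in db/+ (log2 fold change -2.20). Counts for proteasome subunits were 2 higher and 1 lower without db/+ mouse 1 and 1 higher and 2 lower without db/+ mouse 2. Counts for autophagy and lysosome were 4 higher and 10 lower without db/db mouse 2, 4 higher and 8 lower without db/+ mouse 1 and 4 higher and 8 lower without db/+ mouse 2. Counts for antioxidant, glutathione and thioredoxin were 3 higher and 4 lower without db/+ mouse 1 and 3 higher and 4 lower without db/+ mouse 2.

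Matrix genes were few and mostly low. Of 31 listed 15 passed the filter, 7 rose and 2 fell. Spp1 (osteopontin) stood at 22.1 and 89.4 CPM in db/db and 3.28, 1.96 and 3.75 CPM in db/+ (log2 fold change 4.22, SE 0.59, edgeR adjusted p = 0.00264), the laminin chain Lama5 at 10.6 and 17.6 CPM in db/db and 0.164, 0.0726 and 0.0347 CPM in db/+ (log2 fold change 7.28, SE 0.46, edgeR adjusted p = 0.000442) and Timp2 at 41.6 and 65.5 CPM in db/db and 18.2, 19.6 and 19.7 CPM in db/+ (log2 fold change 1.48). The collagens Col6a3 and Col4a1 fell (log2 fold changes -4.56 and -1.96). Lama5 moved to 6.25 and Col6a3 to -5.33 on the log2 scale with length and GC offsets. Spp1 moved on the log2 scale to 4.89 without db/db mouse 1 and 2.88 without db/db mouse 2 and Col6a3 to -5.67 without db/db mouse 2.

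Other genes were named for large gains in CPM. Gc, the vitamin D binding protein known from liver and α-cells, stood at 668 and 734 CPM in db/db and 62.2, 71.1 and 128 CPM in db/+ (log2 fold change 3.01, SE 0.30, edgeR adjusted p = 0.00107). Nucb2, the precursor of nesfatin, stood at 830.4 and 648 CPM in db/db and 205, 156 and 284 CPM in db/+ (log2 fold change 1.78, SE 0.25, edgeR adjusted p = 0.00278), Lgals3bp at 1186 and 1078 CPM in db/db and 361, 356 and 373 CPM in db/+ (log2 fold change 1.64, SE 0.12, edgeR adjusted p = 0.000502) and the proteoglycan Spock2 at 1502 and 1509 CPM in db/db and 574, 577 and 711 CPM in db/+ (log2 fold change 1.28). Gnas, the stimulatory G protein, Eef2, an elongation factor, and Selenop, the selenium carrier, rose (log2 fold changes 0.98, 0.62 and 0.67). All of these were higher in both db/db mice than in any lean mouse, as was the case for 31.9% of the genes tested. Eef2 lost its call with length and GC offsets (log2 fold change 0.43, edgeR adjusted p 0.0629). Eef2 lost its call without db/db mouse 2, db/+ mouse 1 or db/+ mouse 2 (edgeR adjusted p 0.0597 to 0.0940), as did Selenop without db/+ mouse 1 (0.0567).

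Markers of other cells were present in every library. The 10 α-cell markers summed to 2708 and 2332 CPM in db/db and 1330 to 2034 CPM in db/+, a sum made up largely of Ttr in db/db and of Gcg and Ttr in lean mice, and Gcg itself stood at 596 and 347 CPM in db/db and 1088, 1175 and 382 CPM in db/+, and it did not pass the test. Of 8 tested 3 were called higher (Ttr, Gria3 and Slc38a5) and 1, Slc7a2, lower. The δ-cell hormone gene Sst stood at 160.4 and 82.1 CPM in db/db and 2276, 723 and 368 CPM in db/+ (log2 fold change -3.21, SE 0.82, edgeR adjusted p = 0.0219), with lean mouse 1 far above the others. Of 6 δ-cell markers tested 1 was called higher, 2 (Sst and Rbp4) were called lower and 3 did not pass the test. Acinar enzymes were uneven, with summed markers of 406 and 236 CPM in db/db and 81.1 to 257 CPM in db/+, and of 26 tested 1, Try5, was called higher. Lymphocyte markers summed to 3.60 and 11.3 CPM in db/db and 68.9, 46.8 and 21.8 CPM in db/+. Of 3 tested all 3 had negative log2 fold changes, and 1, the B-cell gene Cd79a, was called lower. Cd79a stood at 0.987 and 2.40 CPM in db/db and 32.4, 35.7 and 21.3 CPM in db/+ (log2 fold change -4.12). The B-cell genes Ms4a1 and Cd79b did not pass the filter. Endothelial markers summed to 14.5 and 23.05 CPM in db/db and 7.79 to 46.8 CPM in db/+, highest in lean mouse 3, and 3 of 8 tested were called higher. Ductal markers summed to 602 and 767 CPM in db/db and 458 to 478 CPM in db/+, and 4 of 8 were called higher, among them Spp1. Stellate and fibroblast markers summed to under 5 CPM in every library. Macrophage markers summed to 75.9 and 57.0 CPM in db/db and 37.0 to 62.4 CPM in db/+, and of 7 tested 2 were called higher (C1qb and C1qc) and 1, Fcer1g, lower. The macrophage genes Ptprc, Cd68 and Adgre1 and the T-cell genes Cd3d and Cd3e did not pass the low-count filter. The part of such cells in the gains of Ttr, Gc and Spp1 and in the losses of Sst, Rbp4 and Cd79a was not tested. Gcg passed the threshold without db/+ mouse 3 (log2 fold change -1.26, edgeR adjusted p 0.0194). Slc7a2 lost its call without db/db mouse 1, db/+ mouse 1 or db/+ mouse 2 (edgeR adjusted p 0.0888 to 0.114), as did C1qb without db/db mouse 1, db/db mouse 2, db/+ mouse 1 or db/+ mouse 3 (0.0980 to 0.169) and C1qc without db/db mouse 1, db/db mouse 2, db/+ mouse 2 or db/+ mouse 3 (0.0521 to 0.129). Counts for alpha-cell markers were 5 higher and 0 lower without db/+ mouse 2. Counts for acinar markers were 9 higher and 0 lower without db/+ mouse 2. Counts for endothelial markers were 0 higher and 0 lower without db/db mouse 2, 1 higher and 0 lower without db/+ mouse 1 and 1 higher and 0 lower without db/+ mouse 2. Counts for macrophage markers were 0 higher and 1 lower without db/db mouse 1, 0 higher and 1 lower without db/db mouse 2 and 0 higher and 1 lower without db/+ mouse 3.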

How the data were processed

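RNA-seq libraries of sorted β-cells, 1 per mouse, were compared between db/db (n = 2) and db/+ (n = 3) mice. Per the labels and the study's methods, poly-A libraries were sequenced as paired ends, demultiplexed with bcl2fastq 2.19 and quantified with kallisto 0.44.0 on GRCm38, and the authors deposited estimated counts per gene symbol as whole numbers. The annotation release is not given in the sources used here. Counting splits reads between near-identical genes.

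Low genes were removed with filterByExpr (minimum count 10), and counts were scaled by TMM and tested with the quasi-likelihood F test of edgeR 4.0.16 in R 4.3.3, adjusted over all 13406 genes. The SE is the absolute log2 fold change over the square root of F. DESeq2 1.42.0, other scalings, no filter, all 7 libraries, a replicate block, offsets for length and GC (mgcv 1.9.3, longest transcript of each gene in the GENCODE annotation of GRCm38) and fits without 1 library were alternatives. The fit was checked on simulated counts. The edgeR p-values rest on the spread between these mice, in part shared across genes, and floors cover counting error only.

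Named genes were the 15 largest called rises and falls at a mean of at least 10 CPM without overlap, up to 6 members of each list at 5 CPM or more, the first genes and the steps of each pathway, the largest changes in CPM, and markers of other cells. The libraries compared, the lists and the named genes were chosen with earlier results of these data known. Motif matches were read from the 250 bases before each start. The knockout libraries, and genes under the filter, were left out. Some genes that the rule names are not reported here.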

Additional observations from a re-analysis of the deposited data

How the results depend on the processing

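The 5069 genes called became 5036 with RLE scaling, 5128 with upper-quartile scaling, 5275 with no filter on low counts, 5610 with DESeq2, 5171 with all 7 libraries in 1 fit, 4620 with length and GC offsets and 5022 without Ins1, Ins2 and Iapp. Leaving mitochondrial genes out as well, an alternative chosen after seeing the data, gave 5007. Upper-quartile scaling moved the median of all genes from 0.01 to -0.05 and the share of calls that were higher from 52.5% to 47.6%. At an adjusted p under 0.01, 2479 genes were called, 1385 higher and 1094 lower. Leaving out 1 library gave 3331 to 4394 calls, of which 1865 to 2347 were higher and 1466 to 2116 lower, with the fewest without db/+ mouse 1. A fit with the replicate number as a block called 4516, in which db/+ mouse 3 adds nothing. The labels give the numbers as names of mice and state no pairing. Deviations of same-numbered mice correlated at 0.0805 and 0.0917 across genes, and those of the crossed mice 1 and 2 at -0.0805 and -0.0917. With 2 db/db mice the deviations mirror each other, so these values cannot decide whether same-numbered mice were handled together. Of 269 called genes named here, all 269 kept their direction under every alternative in which they were tested, and 232 stayed past 0.05 in every fit without 1 library. Of the uncalled genes, 3 changed sign when 1 library was left out. Chga ran from -0.071 (without db/db mouse 2) to 0.36, Nr1d1 from -0.68 (without db/db mouse 2, edgeR adjusted p 0.0157) to 1.32 and Pklr from -0.48 (without db/db mouse 1) to 1.89 on the log2 scale. With 2 against 3 mice, the exact permutation test used, which doubles the one-sided p, cannot go below 0.2, and all p-values rest on spread shared across genes.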

Other observations

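Some large changes lay outside the gene lists described, and these genes were chosen after their values were seen. Kcnip3, a calcium-binding partner of potassium channels and a transcriptional repressor, stood at 11.5 and 29.1 CPM in db/db and 0.123, 0.109 and 0 CPM in db/+ (log2 fold change 8.02, SE 0.68, edgeR adjusted p = 0.000698). The guidance cue Ntn1 stood at 19.0 and 29.1 CPM in db/db and 0.164, 0.145 and 0.0695 CPM in db/+ (log2 fold change 7.56, SE 0.34, edgeR adjusted p = 0.000158). Both were near the detection floor in every lean mouse and above 10 CPM in every db/db mouse. Npy, an islet and brain peptide known from immature β-cells, stood at 0.290 and 0 CPM in db/db and 21.5, 8.82 and 2.50 CPM in db/+ (log2 fold change -6.31, SE 1.33, edgeR adjusted p = 0.0114), and the lean mice differed widely among themselves. Kcnip3 moved on the log2 scale to 7.19 without db/db mouse 2 and 7.41 without db/+ mouse 3 and Npy to -5.21 without db/db mouse 2 and -5.34 without db/+ mouse 1.

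Genes of imprinted loci went both ways. Peg3 stood at 204 and 188 CPM in db/db and 475, 432 and 343 CPM in db/+ (log2 fold change -1.09, SE 0.16, edgeR adjusted p = 0.00350) and its neighbour Zim1 at 2.79 and 4.59 CPM in db/db and 15.2, 19.1 and 12.4 CPM in db/+ (log2 fold change -2.07). Nnat (log2 fold change -3.56) and Cdkn1c (log2 fold change -3.37) were lower as well and Dlk1 (log2 fold change 4.01) was higher, while Snrpn stood at 77.2 and 66.9 CPM in db/db and 69.8, 62.2 and 67.5 CPM in db/+ and did not pass the test. Snrpn passed the threshold with length and GC offsets (log2 fold change 0.40, edgeR adjusted p 0.0286).

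Near Lepr, at chr4:101717404-101815352 in GRCm38, Fyb2 at chr4:104913456-105016863 stood at 12.2 and 13.5 CPM in db/db and 0.246, 0.218 and 0.0347 CPM in db/+ (log2 fold change 6.28, SE 0.45, edgeR adjusted p = 0.000515), and Fam151a at chr4:106733889-106748292 was lower (log2 fold change -4.53). These genes were picked for their values, and the share of genes called in this region is not given here, beside 37.8% over all genes. Whether DNA linked to the db allele differs between the groups was not tested.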
